A study of Mus musculus with 30 samples.

Results

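Imprinted genes were followed across naive mouse embryonic stem cells that lack the histone methyltransferase KMT2C, or both KMT2C and its relative KMT2D. The set was chosen by name, as 45 imprinted genes and close partners from the best known mouse domains, and not by any measured value. Earlier results of these data were known when it was chosen. Of these, 39 were in the table of 12428 genes, and the 39 measured members passed a filter of at least 1 CPM (count per 1e+06 reads) as a group mean in at least 1 group. Asb4, Zim1, Magel2, Slc22a18, Kcnk9 and Dcn were not analysed here. Airn passed the filter only through the double-KO groups, so its line difference was partly fixed by the filter. By their usual allele, 22 measured members are expressed from the paternal and 14 from the maternal chromosome, and for Blcap, Gnas and Inpp5f the allele depends on the isoform.

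An imprinted gene is transcribed mainly from the copy inherited from 1 parent, under control of a differentially methylated region that carries the mark of the egg or sperm. In many domains a long noncoding RNA from one allele keeps its neighbours silent on the same chromosome, and paternally expressed genes often favour fetal growth while maternally expressed ones restrain it. Embryonic stem cells are known for losing or gaining such marks in culture, particularly with inhibitors of MEK and GSK3, and lines and clones can differ from each other. The values here are total RNA tags, in which the alleles were not separated, so a change in level does not show which allele it came from.

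The 30 libraries formed 10 groups of 3, from a C57BL/6J x 129 background grown with 15% FBS, LIF and the 2i inhibitors PD0325901 and CHIR99021. All cells lacked Kmt2c. The label "Kmt2cKO; Kmtd fl/fl" names cells with floxed Kmt2d and no transgene, which received tamoxifen for 8 h or 16 h and are called no-transgene cells here. The same genotype with GRHL2-ERT, called Kmt2c-KO, and "Kmt2cKO; Kmt2dKO;GRHL2-ERT", called double-KO, were given either ethanol or tamoxifen, in both cases for 8 h or 16 h. GRHL2-ERT joins GRHL2, a transcription factor of epithelia, to the ligand-binding part of an estrogen receptor, so that it enters the nucleus once tamoxifen is bound, and the labels say that its clones were picked for comparable GRHL2. The lines therefore differ by clone as well as by Kmt2d, and these cannot be told apart. RNA was read as tags near the 3' end with the QuantSeq method. The labels number the replicates and do not say that they were separate cultures, so the p-values reflect only how these libraries spread, which may be technical.

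Recovered depth ran from 8.87 to 22.1 M reads with a median of 16.2 M, so that 3 reads stood for 0.136 to 0.338 CPM in a library. Grhl2 tags ran from 1.40 to 3.55 CPM in no-transgene cells, from 64.6 to 210.4 CPM in Kmt2c-KO cells and from 32.4 to 125 CPM in double-KO cells. Kmt2c ran from 9.47 to 17.996, from 10.3 to 32.8 and from 18.5 to 32.6 CPM in the same order, and Kmt2d from 6.13 to 13.6, from 7.02 to 23.4 and from 5.77 to 13.6 CPM. A 3' tag outside the deleted part of either gene checks neither knockout. Grhl2 group means in Kmt2c-KO and double-KO cells were 178 and 41.2 CPM in ethanol at 8 h and 170 and 78.3 CPM with tamoxifen. The mean of 78.3 CPM came from libraries of 58.6, 125 and 51.2 CPM and leaned on replicate 2. At 16 h the Grhl2 group means were 77.6 and 52.5 CPM in ethanol and 77.5 and 57.5 CPM with tamoxifen. The lines therefore differed in Grhl2 RNA too, and its part in their differences was not tested. The pluripotency markers Pou5f1, Nanog, Sox2 and Klf4 were measured. A list of 13 pluripotency genes, naive and general, summed to between 2470 and 5125 CPM in every library. The double-KO tamoxifen libraries at 8 h stood apart, with mean correlations to their group of 0.965, 0.938 and 0.952 against at least 0.979 elsewhere. Replicate 2 of that group and replicate 3 of the Kmt2c-KO ethanol group at 8 h had over 7% of reads from the ribosomal RNA gene Rn45s, against 1.85% at the lowest. The bulk RNA does not tell fewer expressing cells from less RNA per cell.

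Promoter windows show what sequence stands at the starts of the members that differed most between the lines. RefSeq windows on GRCm38.p6, from 250 bases before a start to 50 after it, were found for 36 of the 45 genes, in 55 windows. Peg10, Sgce, H19, Cdkn1c, Impact, Peg13, Trappc9, Kcnk9 and Dcn had no match. Dlk1, Mest, Nap1l5, Ndn and Nnat are printed. Among paternally expressed genes with a window they had the largest called differences in ethanol at 8 h. Grb10, called lower in double-KO cells at 16 h, and Snrpn, lower only in its sum with Snurf, stand as examples of the other direction. Meg3, Mirg, Phlda2 and Zrsr1 were also called lower in at least 1 comparison and are not printed. Capitals mark TGCCGC, the hexamer that the imprint-protecting zinc finger protein ZFP57 binds when it is methylated, searched on both strands as TGCCGC or GCGGCA.
Dlk1 (chr12:109452573-109452872, + strand): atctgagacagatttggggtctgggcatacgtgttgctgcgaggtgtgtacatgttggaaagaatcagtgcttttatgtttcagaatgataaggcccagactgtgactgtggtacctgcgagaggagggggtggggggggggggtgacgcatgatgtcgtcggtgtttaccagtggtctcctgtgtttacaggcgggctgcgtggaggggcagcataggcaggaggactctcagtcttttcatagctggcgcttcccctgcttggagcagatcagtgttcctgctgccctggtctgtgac
Mest (chr6:30737800-30738099, + strand): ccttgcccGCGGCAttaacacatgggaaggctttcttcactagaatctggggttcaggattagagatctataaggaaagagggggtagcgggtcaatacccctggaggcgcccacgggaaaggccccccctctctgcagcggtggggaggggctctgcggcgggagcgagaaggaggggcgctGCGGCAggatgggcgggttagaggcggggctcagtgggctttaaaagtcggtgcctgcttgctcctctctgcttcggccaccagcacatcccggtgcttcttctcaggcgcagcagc
Nap1l5 (chr6:58907077-58907376, - strand): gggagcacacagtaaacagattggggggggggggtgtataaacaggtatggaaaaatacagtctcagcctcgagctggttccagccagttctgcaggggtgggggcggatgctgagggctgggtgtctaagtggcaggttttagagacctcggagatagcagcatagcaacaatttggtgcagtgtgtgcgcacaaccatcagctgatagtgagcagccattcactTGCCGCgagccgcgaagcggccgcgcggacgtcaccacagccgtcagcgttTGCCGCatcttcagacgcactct
Ndn (chr7:62348027-62348326, + strand): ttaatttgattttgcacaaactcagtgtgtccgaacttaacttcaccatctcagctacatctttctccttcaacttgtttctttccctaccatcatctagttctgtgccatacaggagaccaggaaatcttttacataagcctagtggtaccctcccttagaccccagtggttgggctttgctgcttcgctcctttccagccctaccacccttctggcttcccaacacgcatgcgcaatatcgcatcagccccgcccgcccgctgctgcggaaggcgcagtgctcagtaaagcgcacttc
Nnat (chr2:157559828-157560127, + strand): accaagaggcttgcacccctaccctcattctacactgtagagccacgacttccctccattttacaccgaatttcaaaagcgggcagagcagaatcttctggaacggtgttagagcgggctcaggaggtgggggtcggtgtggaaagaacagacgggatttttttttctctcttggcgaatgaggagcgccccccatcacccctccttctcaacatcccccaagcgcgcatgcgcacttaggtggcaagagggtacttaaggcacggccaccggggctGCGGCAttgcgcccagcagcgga
Grb10 (chr11:12037371-12037670, - strand): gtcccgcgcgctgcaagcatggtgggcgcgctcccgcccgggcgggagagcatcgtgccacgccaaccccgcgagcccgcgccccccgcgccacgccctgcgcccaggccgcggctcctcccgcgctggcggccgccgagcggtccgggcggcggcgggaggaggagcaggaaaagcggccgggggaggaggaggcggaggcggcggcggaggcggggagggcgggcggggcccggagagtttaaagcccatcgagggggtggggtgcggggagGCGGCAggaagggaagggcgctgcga
Snrpn (chr7:60005150-60005449, - strand): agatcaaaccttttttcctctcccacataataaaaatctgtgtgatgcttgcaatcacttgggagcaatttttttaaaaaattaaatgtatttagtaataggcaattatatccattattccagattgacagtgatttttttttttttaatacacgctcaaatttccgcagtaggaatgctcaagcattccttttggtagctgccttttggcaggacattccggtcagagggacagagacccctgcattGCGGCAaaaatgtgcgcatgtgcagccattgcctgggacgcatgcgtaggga

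The hexamer was in 14 of the 55 member windows (25.5%), which belong to 13 genes, against 3813 of 32851 windows of all genes (11.6%). The median number of CpG dinucleotides was 15 in member windows and 7 in all windows. In the printed windows Mest and Nap1l5 held 2 matches with 17 CpGs each and Nnat 1 match with 17 CpGs. Grb10 held 1 match with 45 CpGs and Snrpn 1 match with 7 CpGs. Dlk1 and Ndn held 0 matches, with 9 and 11 CpGs. Snrpn and Snurf share this window in full, and the Peg3 and Usp29 windows share 263 bases because their starts lie 147 bases apart on opposite strands. Mest, Grb10 and Snrpn also had windows that are not printed. Those of Grb10 and Snrpn held 0 matches, with 9 CpGs for Grb10 and 2, 3 and 4 for Snrpn. For Mest the window at chr6:30733256-30733555 held 0 matches with 8 CpGs, and that at chr6:30737803-30738102 held 2 with 17. A match is a description of these letters, and methylation was not measured.

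Double-KO cells held more RNA of most of the measured imprinted genes than Kmt2c-KO cells, in ethanol and with tamoxifen. In ethanol at 8 h the largest called differences were in Sgce, Peg10, Dlk1 and Mest. Their groups did not overlap in any of the 4 comparisons of the lines. Of all genes, the groups of 53.1% and 69.7% did not overlap in ethanol at 8 h and 16 h, and of 44.3% and 63.5% with tamoxifen. In ethanol at 8 h, 26 of 39 members were higher and 4 lower by limma, against 37.6% and 11.9% of all genes tested, and the split was 20 and 6 with median-of-ratios scaling. At 16 h in ethanol 23 were higher and 1 lower, against 40% and 9.96% of all genes, with 21 and 5 under that scaling. With tamoxifen at 8 h 22 were higher and 2 lower (background 30.6% and 14%; other scaling 21 and 3), and at 16 h 26 were higher and 2 lower (41.2% and 10.1%; other scaling 21 and 4). The lines differed in about as many genes in either treatment, with 49.4%, 50%, 44.5% and 51.3% of all genes called in the 4 comparisons. With median-of-ratios scaling 5238, 5148, 5042 and 5341 of the 12414 genes were called in either direction.

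The median log2 fold change of the members was 0.70, 0.81, 0.70 and 0.97 in the 4 comparisons, in the order ethanol at 8 h and 16 h, then tamoxifen at 8 h and 16 h, which is kept throughout. The median of all genes was 0.31, 0.35, 0.18 and 0.35. Fold changes are on the log2(CPM + 1) scale, which understates the change of low genes, and stand with the model's SE after the ± sign. Median-of-ratios scaling lowered the median difference of all genes between the lines by 0.28, 0.32, 0.18 and 0.34 on the log2 scale, with single genes moving by more or less, and the calls it changes are given with each gene. In all 4 comparisons 19 members were higher, against 18.1% of all genes, and 0 were lower, against 4.62%. Snrpn and Snurf were counted here as listed, while their sum, given below, was called lower in all 4. With median-of-ratios scaling 14 members were higher in all 4, as were 1044 of the 12414 genes. The 19 and the 14 include Airn, whose line difference was partly fixed by the filter, as do the counts of higher members in each comparison. Under that scaling Phlda2 was lower in all 4, as were 1144 of all genes.

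**Figure D1:**
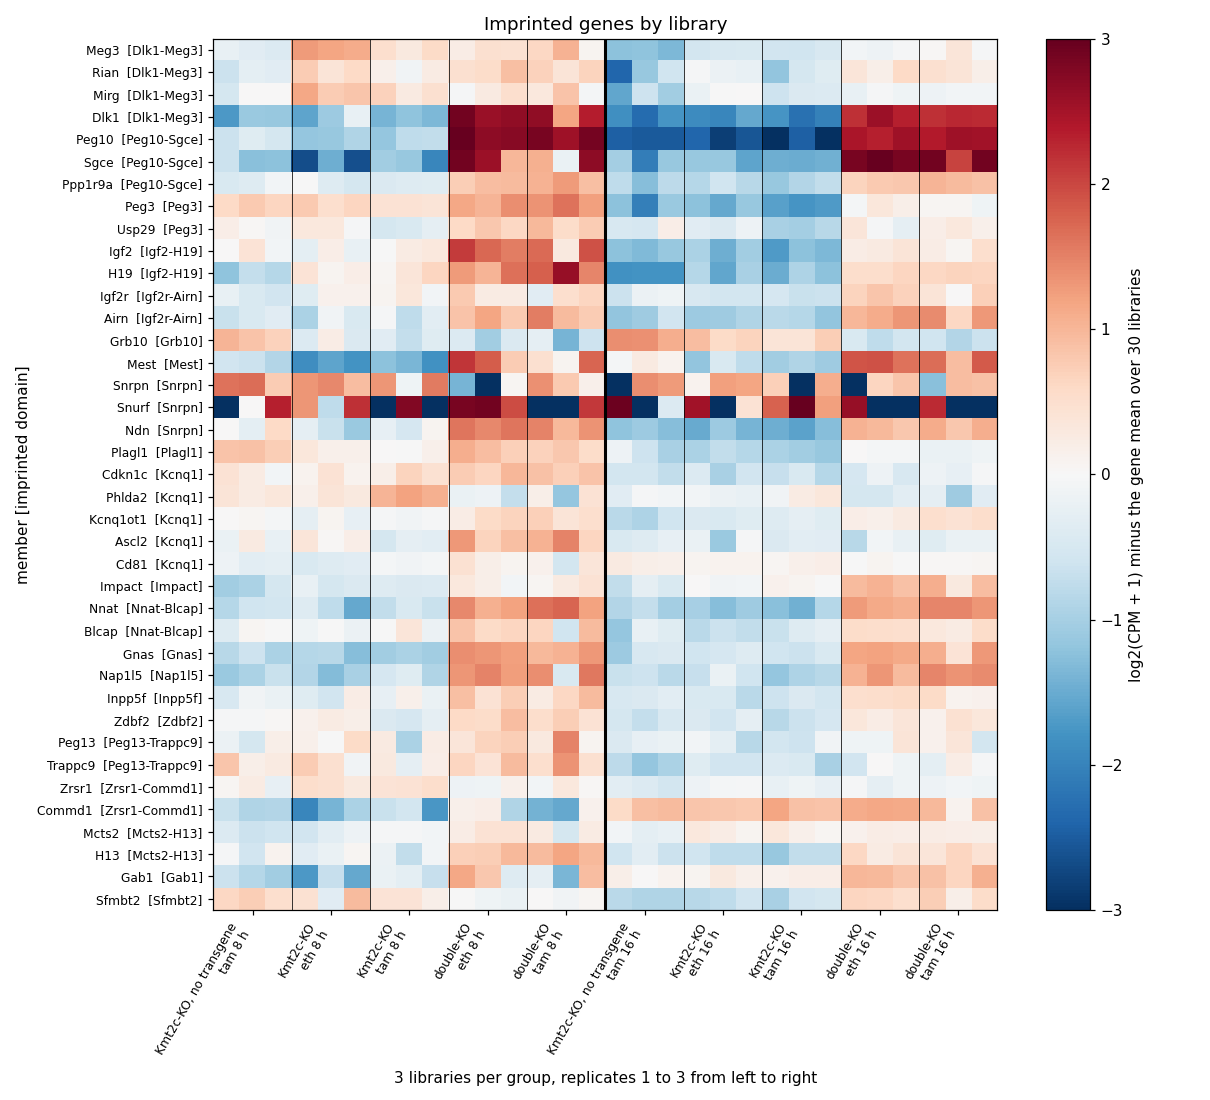
Level of the 39 measured imprinted genes (rows) in the 30 libraries (columns, by group), as log2(CPM + 1) minus the mean of the gene over all libraries. Most rows are above their mean in the double-KO columns and below it in the Kmt2c-KO and no-transgene columns.

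By usual allele, the paternally expressed members had the larger median difference. Of 22 paternally expressed members 16, 15, 15 and 16 were higher and 1, 0, 1 and 0 lower, with medians of 1.07, 1.17, 0.98 and 1.23. The 14 maternally expressed members had 7, 5, 5 and 7 higher and 3, 1, 1 and 2 lower, with medians of 0.53, 0.30, 0.27 and 0.56. With median-of-ratios scaling the medians were 0.81, 0.81, 0.78 and 0.93 for paternal and 0.23, -0.03, 0.07 and 0.23 for maternal members, so the maternal median changed sign in ethanol at 16 h. The paternal counts and medians include Airn, whose line difference was partly fixed by the filter. Snrpn and Snurf, which come from 1 transcript, entered these counts and medians as separate paternal members, and neither was called. The sum of Snrpn and Snurf, chosen after the values were seen, was called lower in each comparison, by -0.58, -0.61, -0.33 and -0.55. The paternal counts of lower members do not show this decrease. The difference between the paternal and the maternal members was not tested.

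**Figure D2:**
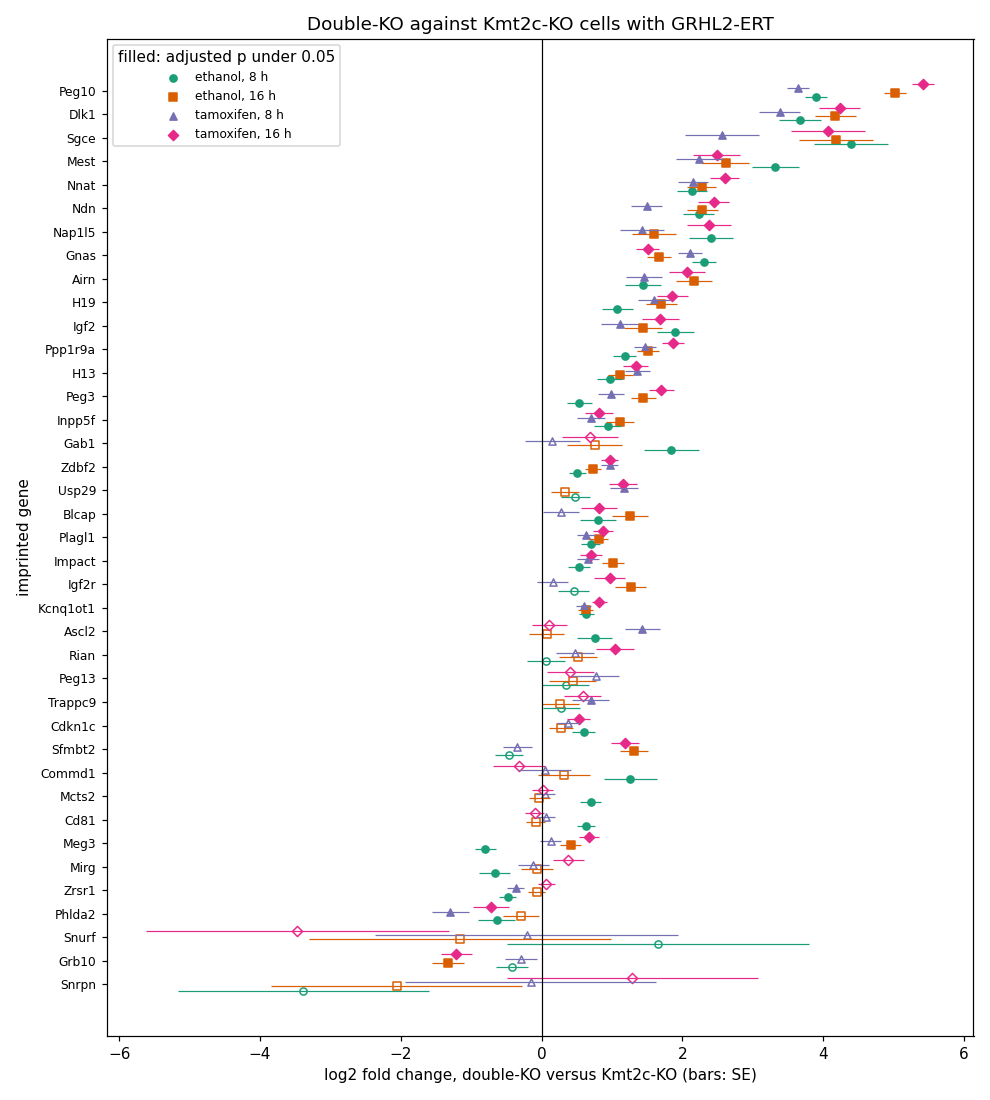
Log2 fold change of each measured member in double-KO against Kmt2c-KO cells, with SE bars, in the 4 line comparisons; filled points passed limma's adjusted p of 0.05. Sgce, Peg10 and Dlk1 lie farthest to the right, and Meg3, Mirg, Phlda2, Zrsr1 and Grb10 have points to the left of 0 that passed in at least 1 comparison; with median-of-ratios scaling the median of all genes moves left by 0.18 to 0.34.

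The Peg10 and Sgce domain of chromosome 6 showed the widest gap between the lines. Peg10 (mm10, chr6:4747306-4760517, + strand), a gene derived from a retrotransposon that the placenta needs, had 45.1, 45.6 and 53.8 CPM in the Kmt2c-KO ethanol libraries at 8 h and 856, 662 and 683 CPM in the double-KO ones. At 16 h it had 18.7, 13.7 and 16.5 CPM against 558, 516 and 598 CPM. Every double-KO library was far above every Kmt2c-KO and no-transgene library, and the groups did not overlap with tamoxifen either. The differences were 3.90 ± 0.16, 5.02 ± 0.16, 3.64 ± 0.16 and 5.42 ± 0.16, with a largest adjusted p of 1.2e-16. Peg10 in no-transgene cells, at 65.0 to 78.6 CPM at 8 h and 16.9 to 17.9 CPM at 16 h, lay near the Kmt2c-KO level.

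Sgce (chr6:4674350-4747207, - strand), which encodes epsilon-sarcoglycan, starts 99 bases from Peg10 on the other strand. It had 0.238, 1.84 and 0.243 CPM with ethanol at 8 h in the Kmt2c-KO line and 56.8, 44.8 and 14.4 CPM in the double-KO line, and 2.54, 2.54 and 1.58 CPM against 54.7, 61.5 and 54.8 CPM at 16 h. The groups did not overlap in any of the 4 comparisons, although the double-KO libraries at 8 h ran from 5.76 to 56.8 CPM. Its differences were 4.40 ± 0.53, 4.18 ± 0.53, 2.56 ± 0.53 and 4.07 ± 0.53 (largest adjusted p 0.00041). Kmt2c-KO levels of Sgce were close to the floor of 3 reads in some libraries, so the size depends on the pseudocount. Ppp1r9a, the neurabin gene of the same domain (chr6:4902917-5165661), was higher by less, with 8.69, 10.6 and 8.85 CPM against 26.8, 29.3 and 29.6 CPM in ethanol at 16 h and differences of 1.18 ± 0.16, 1.52 ± 0.16, 1.47 ± 0.16 and 1.87 ± 0.16. Its groups in ethanol at 16 h did not overlap.

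In the Dlk1 and Meg3 domain of chromosome 12 the paternally and the maternally expressed genes did not move together. Dlk1 (chr12:109452823-109463336), a membrane protein related to Notch ligands, had 1.67, 2.76 and 5.84 CPM in Kmt2c-KO cells at 8 h with ethanol, against 58.0, 47.0 and 49.1 CPM in the double-KO line, and 1.14, 1.03 and 1.73 CPM against 35.6, 46.2 and 39.3 CPM at 16 h. With tamoxifen it had 2.02, 2.45 and 2.12 CPM against 49.0, 17.2 and 39.6 CPM at 8 h and 1.35, 0.674 and 0.951 CPM against 35.0, 37.2 and 36.3 CPM at 16 h. No double-KO library overlapped the Kmt2c-KO range, and differences were 3.67 ± 0.29, 4.17 ± 0.29, 3.38 ± 0.29 and 4.24 ± 0.29 (largest adjusted p 2.9e-10).

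Meg3 (chr12:109541001-109571726), the maternally expressed noncoding RNA that starts 88178 bases from Dlk1, had 272, 255 and 243 CPM in the ethanol libraries of Kmt2c-KO cells at 8 h and 131, 157 and 154 CPM in those of double-KO cells. At 16 h it had 76.0, 80.0 and 81.0 CPM against 105, 101 and 110.03 CPM. The groups did not overlap at either time, and the order of the lines was opposite. The line difference was -0.80 ± 0.15 at 8 h (adjusted p = 6.4e-05) and 0.41 ± 0.15 at 16 h (adjusted p = 0.021). The 16 h call was lost without replicate 1 of the Kmt2c-KO group (0.39), without replicate 3 of the double-KO group (0.38) and with median-of-ratios scaling (0.05). With tamoxifen the difference was 0.13 ± 0.15 at 8 h, which did not pass, and 0.68 ± 0.15 at 16 h (adjusted p = 0.00037), where median-of-ratios scaling gave 0.29 and no call.

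Rian and Mirg, the noncoding hosts of small nucleolar RNAs and microRNAs downstream of Meg3, differed less. Rian passed only with tamoxifen at 16 h, with 13.3, 21.7 and 24.1 CPM against 44.6, 41.2 and 35.7 CPM (1.04 ± 0.27; adjusted p = 0.0024). In ethanol at 8 h Mirg was lower in double-KO cells, with 16.7, 12.6 and 13.1 CPM against 6.80, 8.62 and 10.3 CPM (-0.67 ± 0.22; adjusted p = 0.016), a call lost without replicate 1 of either group (-0.55 and -0.53). In the other 3 comparisons Mirg had -0.06, -0.11 and 0.38 and did not pass.

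Genes of the insulin-like growth factor axis differed in both directions. Igf2 (chr7:142650766-142666816), a fetal growth factor, had 45.2, 63.7 and 47.3 CPM with ethanol at 8 h in the Kmt2c-KO line and 242, 186 and 164 CPM in the double-KO line, and 28.3, 19.5 and 26.7 CPM against 64.7, 66.9 and 73.8 CPM at 16 h. The ethanol groups did not overlap, while with tamoxifen at 8 h replicate 2 of the double-KO group (68.6 CPM) fell within the Kmt2c-KO range. The differences of Igf2 were 1.90 ± 0.27, 1.44 ± 0.27, 1.11 ± 0.27 and 1.69 ± 0.27 (largest adjusted p 0.0016). H19 (chr7:142575529-142578143), a maternally expressed noncoding RNA that shares its imprinting control region with Igf2, had 199.9, 159.6 and 172 CPM against 363, 304 and 469.5 CPM in ethanol at 8 h and 81.8, 49.9 and 76.2 CPM against 217, 218 and 233 CPM at 16 h. H19 and Igf2 are expressed from opposite alleles, and both were higher in every double-KO library of these ethanol groups. The differences of H19 were 1.08 ± 0.22, 1.70 ± 0.22, 1.60 ± 0.22 and 1.86 ± 0.22 (largest adjusted p 0.00034).

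Igf2r (chr17:12682406-12769664), the receptor that carries IGF2 to the lysosome, had 7.54, 7.15 and 7.19 CPM in Kmt2c-KO cells at 16 h with ethanol, against 18.1, 20.4 and 18.4 CPM in the double-KO line. These groups did not overlap, with differences of 1.26 ± 0.22 (adjusted p = 2.7e-05) and, with tamoxifen, 0.97 ± 0.22 (adjusted p = 0.00058). At 8 h Igf2r had 0.46 and 0.16 and did not pass. Airn, the noncoding RNA that runs across Igf2r on the other strand and silences it on the paternal chromosome, had 0.0634, 0.0794 and 0.216 CPM against 3.53, 3.89 and 4.67 CPM in ethanol at 16 h. The Kmt2c-KO libraries were at or near the floor of 3 reads and the double-KO libraries were not, with fitted differences of 1.44 ± 0.25, 2.16 ± 0.25, 1.46 ± 0.25 and 2.06 ± 0.25 that depend on the pseudocount. Whether counting used the strand is not given in the sources used here, so reads of Airn and Igf2r may not be told apart.

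Grb10 (chr11:11930508-12038683), an adaptor that restrains insulin receptor signalling, had the largest decreases at 16 h among the called members. It had 23.1, 17.7 and 19.2 CPM in the ethanol libraries of Kmt2c-KO cells and 8.12, 6.42 and 7.59 CPM in those of double-KO cells, and 15.5, 15.6 and 20.04 CPM against 7.28, 5.92 and 7.14 CPM with tamoxifen. Each double-KO library was below each Kmt2c-KO library, with differences of -1.32 ± 0.23 (adjusted p = 2.1e-05) and -1.21 ± 0.23 (adjusted p = 6.7e-05). At 8 h the Kmt2c-KO level was already low, at 8.45, 13.8 and 8.27 CPM against 8.57, 5.08 and 8.30 CPM in ethanol, and the differences of -0.42 ± 0.23 and -0.29 ± 0.23 did not pass, although median-of-ratios scaling gave a call in ethanol (-0.69). Plagl1, a zinc finger transcription factor that regulates other imprinted genes, was higher in double-KO cells by 0.70 ± 0.14, 0.81 ± 0.14, 0.64 ± 0.14 and 0.88 ± 0.14 (largest adjusted p 0.00052).

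**Figure D3:**
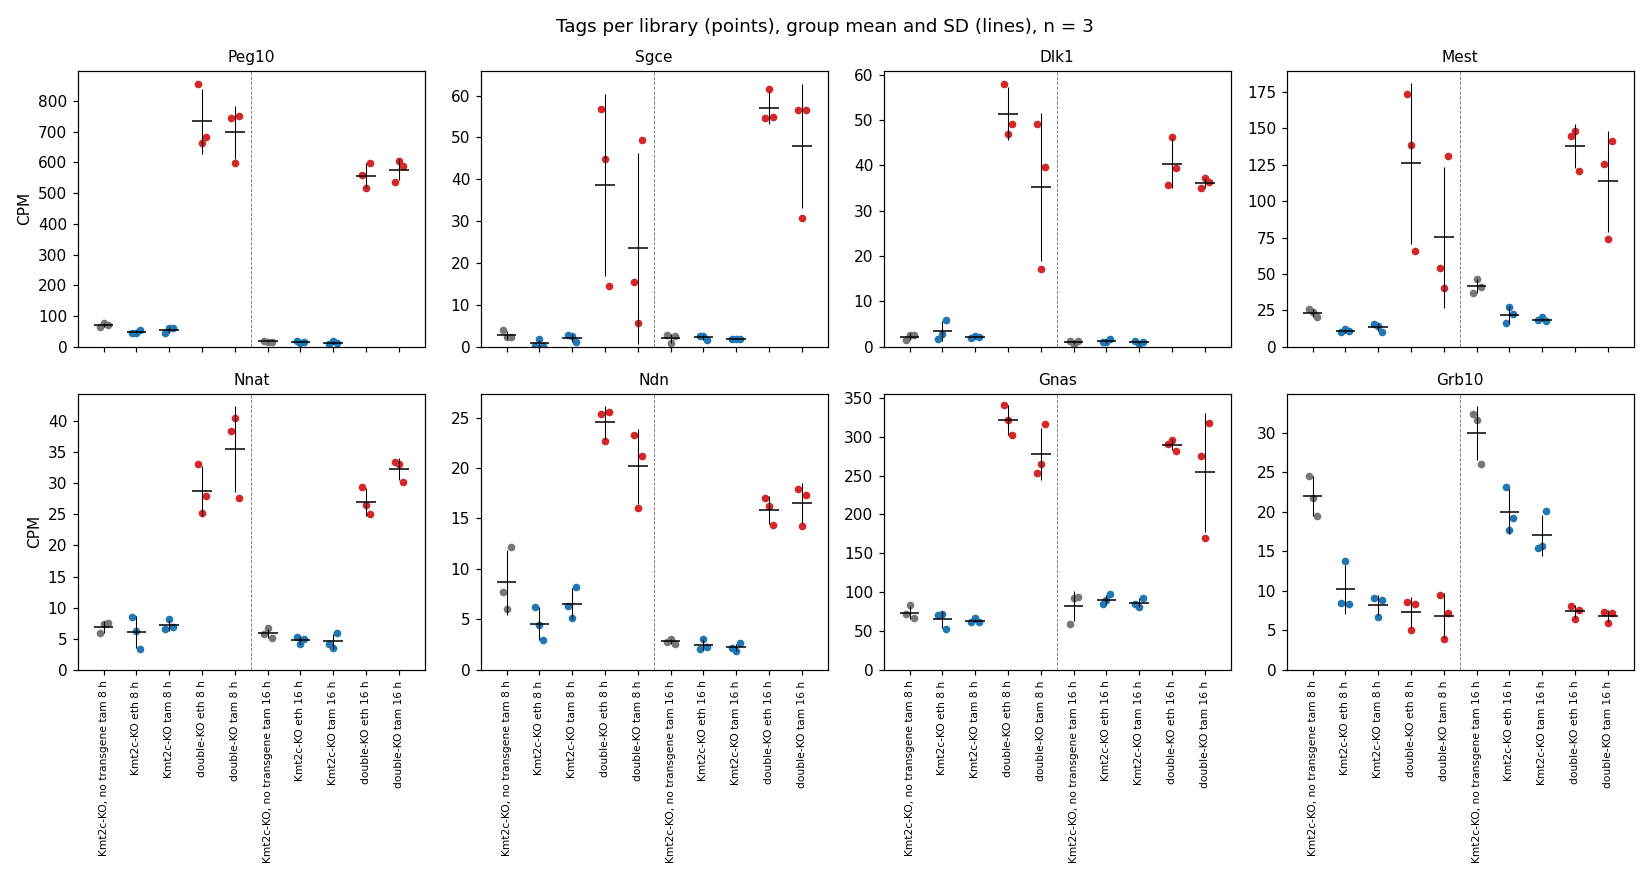
CPM of Peg10, Sgce, Dlk1, Mest, Nnat, Ndn, Gnas and Grb10 in each group, with libraries as points and mean and SD as bars; grey is no transgene, blue Kmt2c-KO, red double-KO, and the dashed line separates 8 h from 16 h. For Peg10, Dlk1, Mest and Nnat every double-KO library is above the Kmt2c-KO libraries of the same time, and for Grb10 the double-KO libraries at 16 h are below them.

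Mest, Ndn, Nnat, Gnas and Nap1l5 were higher in all 4 comparisons. Mest (chr6:30723547-30748465), an enzyme of the alpha/beta hydrolase fold linked to growth, had 9.82, 12.2 and 10.5 CPM with ethanol at 8 h in the Kmt2c-KO line and 174, 138 and 65.7 CPM in the double-KO line, and 16.3, 27.6 and 22.2 CPM against 144, 148 and 121 CPM at 16 h. The groups were apart in every comparison, and the double-KO spread was wide at 8 h. The differences of Mest were 3.32 ± 0.33, 2.62 ± 0.33, 2.24 ± 0.33 and 2.49 ± 0.33 (largest adjusted p 9.1e-06). Ndn (chr7:62346569-62350262), the necdin gene, which restrains the cell cycle in neurons, had 6.25, 4.47 and 3.00 CPM against 25.4, 22.7 and 25.5 CPM at 8 h and 2.03, 3.10 and 2.30 CPM against 17.0, 16.2 and 14.3 CPM at 16 h in ethanol. No Ndn library of one line reached the other line, and the differences were 2.24 ± 0.22, 2.29 ± 0.22, 1.49 ± 0.22 and 2.45 ± 0.22 (largest adjusted p 3.4e-06).

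Nnat (chr2:157560078-157562522), a small membrane protein of neurons and endocrine cells, had 8.51, 6.31 and 3.32 CPM in Kmt2c-KO cells at 8 h with ethanol, against 33.0, 25.2 and 27.9 CPM in the double-KO line, and 5.26, 4.13 and 4.96 CPM against 29.3, 26.6 and 24.98 CPM at 16 h. The groups did not overlap, and the differences were 2.14 ± 0.21, 2.27 ± 0.21, 2.15 ± 0.21 and 2.60 ± 0.21 (largest adjusted p 3.2e-09). Blcap, the gene that holds Nnat in an intron on the other strand, had 0.80 ± 0.26, 1.26 ± 0.26 and 0.81 ± 0.26 where it passed and 0.27 ± 0.26 where it did not. With median-of-ratios scaling the Blcap calls in ethanol at 8 h (0.49) and with tamoxifen at 16 h (0.44) were lost, and the latter also without replicate 1 of the Kmt2c-KO group (0.69).

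Gnas (chr2:174284320-174346744), whose main product is the G protein alpha subunit that stimulates adenylyl cyclase, had 70.1, 72.1 and 52.0 CPM against 340.3, 322 and 302 CPM at 8 h and 84.7, 89.5 and 97.2 CPM against 291, 296 and 282 CPM at 16 h in ethanol. Double-KO libraries were well above, and the differences were 2.31 ± 0.17, 1.67 ± 0.17, 2.11 ± 0.17 and 1.51 ± 0.17 (largest adjusted p 3.5e-08). A 3' tag does not separate the imprinted Gnas isoforms, which share their last exons. Nap1l5, an intronless gene inside Herc3 related to nucleosome assembly proteins, had 0.654, 0.245 and 0.568 CPM against 6.66, 7.57 and 6.33 CPM in ethanol at 8 h. These groups did not overlap, while with tamoxifen at 8 h replicate 2 of the double-KO group (1.24 CPM) lay within the Kmt2c-KO range. Its differences were 2.41 ± 0.31, 1.60 ± 0.31, 1.42 ± 0.31 and 2.37 ± 0.31 (largest adjusted p 0.00051).

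Smaller increases were called in all 4 comparisons for Peg3, Impact, Zdbf2, Inpp5f, H13 and Kcnq1ot1. Peg3 (chr7:6703892-6730431), a zinc finger protein, had 30.2, 24.2 and 27.1 CPM against 38.9, 35.2 and 45.9 CPM in ethanol at 8 h and 6.66, 5.24 and 7.19 CPM against 16.2, 21.8 and 19.1 CPM at 16 h. The ethanol groups did not overlap at either time and lay farther apart at 16 h on the log2 scale. The differences of Peg3 were 0.54 ± 0.18, 1.44 ± 0.18, 0.99 ± 0.18 and 1.70 ± 0.18. The ethanol 8 h call of Peg3 was lost without replicate 2 of the Kmt2c-KO group (0.46), without replicate 3 of the double-KO group (0.44), with array weights (0.43) and with median-of-ratios scaling (0.23). Usp29, a ubiquitin peptidase gene that starts beside Peg3, passed with tamoxifen only (1.17 ± 0.20 and 1.16 ± 0.20) and had 0.48 ± 0.20 and 0.33 ± 0.20 in ethanol.

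Impact, a regulator of translation under amino acid stress, had 117, 108 and 110.4 CPM against 228, 241 and 216 CPM in ethanol at 16 h and differences of 0.53 ± 0.16, 1.02 ± 0.16, 0.66 ± 0.16 and 0.70 ± 0.16. The lines did not overlap there, but its calls in ethanol at 8 h (0.22) and with tamoxifen at 16 h (0.31) were lost with median-of-ratios scaling. Zdbf2, whose level is set by an imprint present only early in development, had 0.51 ± 0.12, 0.73 ± 0.12, 0.97 ± 0.12 and 0.97 ± 0.12, of which the first was lost under that scaling (0.19). Inpp5f, a phosphoinositide phosphatase, had 0.94 ± 0.19, 1.11 ± 0.19, 0.70 ± 0.19 and 0.82 ± 0.19, and the last was lost (0.46). Kcnq1ot1, the noncoding RNA that silences its neighbours on distal chromosome 7, had 0.63 ± 0.11, 0.63 ± 0.11, 0.60 ± 0.11 and 0.82 ± 0.11, and the ethanol 16 h call was lost (0.26). H13, a signal peptide peptidase gene, had 0.97 ± 0.18, 1.12 ± 0.18, 1.36 ± 0.18 and 1.34 ± 0.18 and lost no call under that scaling.

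Other genes of the Kcnq1ot1 cluster went different ways. Phlda2 (chr7:143501545-143503150), a maternally expressed gene that restrains placental growth, had 78.3, 89.4 and 80.6 CPM in the tamoxifen libraries of Kmt2c-KO cells at 8 h and 42.7, 16.4 and 51.2 CPM in those of double-KO cells. The double-KO libraries were lower without overlap, by -1.29 ± 0.26 (adjusted p = 0.00023). In ethanol at 8 h it had -0.64 ± 0.26 (adjusted p = 0.043), with -0.46 to -0.72 and no call without any 1 of the Kmt2c-KO libraries or of replicates 1 and 3 of the double-KO group. With tamoxifen at 16 h it had -0.72 ± 0.26 (adjusted p = 0.022), with no call without replicate 2 (-0.68) or 3 (-0.63) of Kmt2c-KO or replicate 2 of double-KO cells (-0.46). In ethanol at 16 h Phlda2 had -0.29 ± 0.26 and did not pass.

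Cdkn1c, the p57 inhibitor of cyclin-dependent kinases, passed in ethanol at 8 h (0.60 ± 0.17) and with tamoxifen at 16 h (0.53 ± 0.17). Median-of-ratios scaling removed both calls (0.29 and 0.16), and leaving out replicate 3 of the Kmt2c-KO group removed the second (0.43). Ascl2, a trophoblast transcription factor, was higher at 8 h in ethanol (0.76 ± 0.24) and tamoxifen (1.43 ± 0.24) and had 0.07 and 0.11 at 16 h. The ethanol call of Ascl2 was lost without replicate 1 of the double-KO group (0.59) and with median-of-ratios scaling (0.46). Cd81, a tetraspanin, was higher only in ethanol at 8 h (0.63 ± 0.13), and with median-of-ratios scaling it was lower at 16 h (-0.45 and -0.49).

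Commd1, Mcts2 and Gab1 were each called in 1 of the 4 comparisons and Zrsr1 in 2. Commd1 was higher in ethanol at 8 h, with 12.1, 18.6 and 25.2 CPM against 56.0, 58.0 and 26.4 CPM (1.26 ± 0.37; adjusted p = 0.0079), a call lost without replicate 1 of the Kmt2c-KO group (1.00). Zrsr1, a splicing factor gene inside Commd1, was lower at 8 h (-0.48 ± 0.12 in ethanol and -0.37 ± 0.12 with tamoxifen), and its tamoxifen call was lost without replicate 3 of Kmt2c-KO (-0.33) or replicate 1 of double-KO cells (-0.29). Mcts2, a retrogene inside H13, was higher in ethanol at 8 h (0.70 ± 0.15) and did not pass elsewhere, although with median-of-ratios scaling it was lower at 16 h (-0.39 and -0.37), as was Zrsr1 in ethanol (-0.43). Gab1, a signalling adaptor imprinted in the placenta, was higher in ethanol at 8 h (1.84 ± 0.39), with 23.7, 49.5 and 26.8 CPM against 179.5, 141 and 61.3 CPM. The Gab1 groups did not overlap, and the double-KO libraries differed widely among themselves.

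Sfmbt2, a Polycomb protein imprinted mainly in extraembryonic tissue, was called higher in double-KO cells at 16 h and not at 8 h. It had 10.8, 11.4 and 13.2 CPM against 32.1, 31.1 and 29.1 CPM in ethanol at 16 h and 27.9, 15.5 and 39.9 CPM against 19.9, 18.4 and 17.3 CPM at 8 h. In ethanol the 16 h groups did not overlap and the 8 h groups did. The differences were 1.31 ± 0.20 in ethanol and 1.18 ± 0.20 with tamoxifen at 16 h, against -0.47 ± 0.20 and -0.34 ± 0.20 at 8 h, where the tamoxifen groups did not overlap either. With median-of-ratios scaling Sfmbt2 was called lower at 8 h (-0.77 and -0.54). Trappc9, a trafficking protein gene, passed with tamoxifen at 8 h (0.70 ± 0.26), and not without replicate 2 of the Kmt2c-KO (0.53) or double-KO group (0.41) or with median-of-ratios scaling (0.52). Peg13, a noncoding RNA in an intron of Trappc9, passed in no line comparison, with log2 fold changes from 0.34 to 0.77.

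Snrpn and Snurf passed in no line comparison as listed, but their sum did. Both come from 1 transcript of chromosome 7 that encodes a splicing protein of the brain and a short upstream protein, and the Snurf model (chr7:59995449-60005049) lies inside the Snrpn model on the same strand. Snurf was listed at 0 in 11 and Snrpn at 0 in 4 of the 30 libraries, and the share of each varied from library to library while the sum ran from 52.2 to 118.8 CPM. Summed, they had 108, 98.1 and 104 CPM with ethanol at 8 h in the Kmt2c-KO line and 74.1, 64.1 and 68.6 CPM in the double-KO line. At 16 h in ethanol the sum had 85.8, 81.1 and 88.9 CPM against 52.2, 53.9 and 61.0 CPM. The lines did not overlap at either time in ethanol, and they did with tamoxifen at 8 h, where replicate 1 of the double-KO group had 89.7 CPM. The sum was lower in double-KO cells by -0.58 ± 0.13, -0.61 ± 0.13, -0.33 ± 0.13 and -0.55 ± 0.13 (adjusted p = 0.00054, 0.00029, 0.039 and 0.00071). The summing was chosen after the values were seen.

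**Figure D4:**
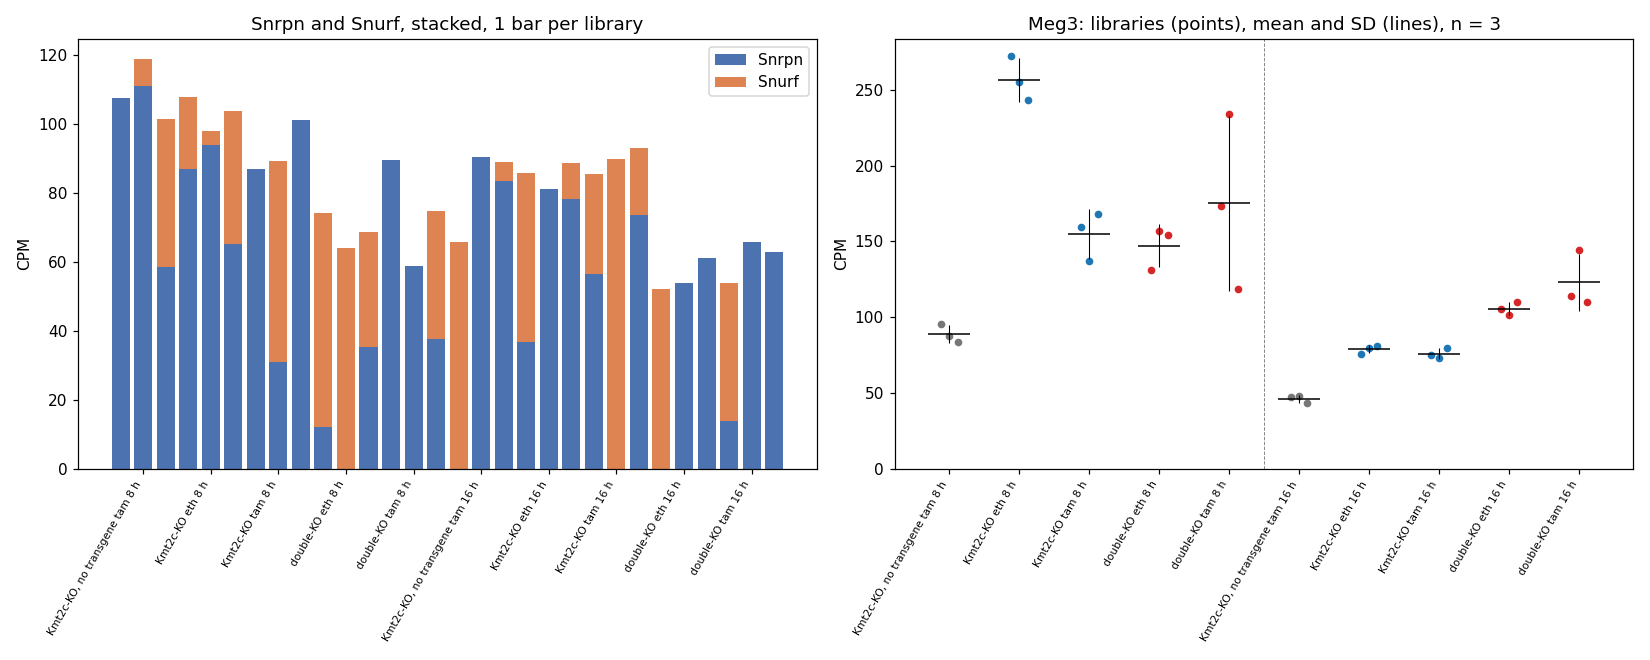
Left, CPM of Snrpn and Snurf stacked for each library; right, CPM of Meg3 in each library by group. The share of the 2 Snrpn and Snurf rows varies between replicates while their sum is lower in double-KO libraries, and Meg3 is highest in the Kmt2c-KO ethanol libraries at 8 h (243 to 272 CPM).

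Primitive endoderm, neuroectoderm and feeder markers were called higher and not lower in double-KO cells, while trophoblast and mesoderm markers had calls both ways. Some markers of the first 3 lists stayed below the 1 CPM filter in every Kmt2c-KO library, so their direction may be partly fixed by it. Of all genes 37.6%, 40%, 30.6% and 41.2% were called higher. Of 7 measured primitive endoderm markers 6, 6, 4 and 6 were higher and 0 lower in the 4 comparisons, and their sum ran from 5.70 to 21.5 CPM in Kmt2c-KO and from 82.3 to 132 CPM in double-KO libraries. Of 6 neuroectoderm markers 3, 4, 3 and 4 were higher and 0 lower (sum 18.9 to 38.7 against 50.6 to 116 CPM), with Sox1 higher by 5.11, 3.86, 4.84 and 3.69. Of 6 feeder or fibroblast markers 5, 5, 5 and 4 were higher and 0 lower (48.4 to 89.0 against 222 to 348 CPM), with Acta2 higher by 3.63, 6.28, 3.35 and 6.25. Trophoblast markers, 7 in all, had 4, 4, 2 and 4 higher and 2, 1, 1 and 1 lower (83.5 to 321 against 251 to 326 CPM), a list that shares Ascl2 with the members. Of 4 mesoderm markers 0, 2, 0 and 0 were higher and 2, 1, 1 and 1 lower (7.76 to 14.7 against 5.44 to 8.58 CPM).

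Some defining markers were near 0 in Kmt2c-KO libraries and at most 3.44 CPM in double-KO libraries. Gata6 ran from 0 to 0.37 CPM in Kmt2c-KO and from 0.61 to 3.44 CPM in double-KO libraries, Zic1 from 0 to 0.16 against 1.10 to 3.42 CPM, Col1a1 from 0 to 0.65 against 0.53 to 1.97 CPM, and Col1a2 from 0 to 0.18 against 0.61 to 3.16 CPM. The double-KO ranges of Gata6, Zic1 and Col1a2 were wholly above the Kmt2c-KO ranges, and those of Col1a1 overlapped. None of these genes reached the 1 CPM filter in a Kmt2c-KO library, so their line differences may be partly fixed by the filter. Sox17, Sox7, Afp, Cdx2, Elf5, Hand1, Tpbpa, Neurog2, Mesp1, Tbx6, Kdr, Col3a1, Lum and Postn were not analysed here. Of the 13 listed pluripotency genes 3, 2, 4 and 4 were higher and 5, 6, 5 and 5 lower, with Klf4 at 1.28, 1.07, 1.79 and 1.18 and Sox2 at -1.52, -1.24, -0.82 and -1.05. The part of these cell states in the imprinted gene differences was not tested.

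Regulators that lay down, keep or erase DNA methylation at imprints differed in both directions. Of 24 such genes, all measured, 3, 7, 8 and 8 were higher and 8, 7, 7 and 6 lower, with medians of -0.02, -0.06, 0.06 and -0.06 against 0.31, 0.35, 0.18 and 0.35 for all genes. With median-of-ratios scaling the counts were 3, 2, 5 and 3 higher and 14, 14, 9 and 12 lower. Dppa3, which protects maternal methylation in the zygote, had 58.7 ± 7.56 CPM in Kmt2c-KO cells at 8 h with ethanol, against 1.23 ± 0.976 CPM in the double-KO line (SD, n = 3), and was lower by -4.82, -2.18, -4.75 and -2.90. Dnmt3l, the partner of the de novo methyltransferases, had 138 ± 16.3 against 17.98 ± 2.90 CPM (differences -2.88, -3.87, -2.40 and -3.82).

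The de novo methyltransferase genes Dnmt3b (-1.39, -1.05, -1.88 and -1.13) and Dnmt3a (-0.82, -0.73, -0.33 and -0.75) and the methylcytosine oxidase gene Tet1 (-2.12, -1.13, -1.36 and -0.90) were lower in all 4 comparisons as well. Tet3 (2.57, 2.28, 1.61 and 2.23), Tet2 (1.66, 0.46, 1.36 and 0.41) and the histone methyltransferase gene Ehmt1 (0.81, 0.81, 0.42 and 0.78) were higher in all 4. With median-of-ratios scaling the calls of Tet2 at 16 h (0.10 and 0.02) and of Ehmt1 with tamoxifen at 8 h (0.22) were lost. Zfp57, the imprint protector whose hexamer is marked in the promoter windows, passed only with tamoxifen at 8 h (1.02 ± 0.26; adjusted p = 0.0023), with 7.23 ± 2.32 CPM in Kmt2c-KO cells against 16.0 ± 6.62 CPM in the double-KO line. With median-of-ratios scaling Zfp57 was also called lower in ethanol at 16 h (-0.85).

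Imprinted genes and domain neighbours outside the set were called higher more often than lower, as were all genes. Of 37 listed, 24 were measured, of which 11, 15, 13 and 18 were higher and 2, 3, 2 and 3 lower (8, 8, 8 and 12 higher and 3, 4, 2 and 4 lower with median-of-ratios scaling), with medians of 0.40, 0.62, 0.48 and 0.75. Of all genes 37.6%, 40%, 30.6% and 41.2% were higher and 11.9%, 9.96%, 14% and 10.1% lower, with medians of 0.31, 0.35, 0.18 and 0.35. Peg12, a paternally expressed gene near Ndn, had 2.07 ± 0.556 CPM in the ethanol libraries of Kmt2c-KO cells at 8 h and 24.1 ± 8.58 CPM in those of double-KO cells and was higher by 2.98, 3.37, 2.78 and 3.61. Pon2 (2.54, 2.99, 1.36 and 2.37) and Pon3 (1.60, 2.03, 1.54 and 1.87), paraoxonase genes near Peg10, were higher in all 4. Dio3, a deiodinase gene at the far end of the Dlk1 domain, was lower in all 4 (-2.68, -2.58, -2.43 and -2.24), opposite to Dlk1, with 17.7 ± 4.91 against 1.93 ± 0.753 CPM in ethanol at 8 h. Cobl, an actin nucleator gene next to Grb10, was lower in all 4 as well (-2.14, -2.69, -1.28 and -2.45).

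Tamoxifen, given to bring GRHL2-ERT into the nucleus, gave calls among the imprinted genes at about the rate of all genes. No-transgene cells had no ethanol libraries, so effects of nuclear GRHL2 and of tamoxifen itself cannot be told apart. In Kmt2c-KO cells at 8 h 0 of 39 members rose and Meg3 and Zdbf2 fell by limma, against 2.92% of all genes up and 2.04% down (4.95% in either direction, and 5.13% of the members). The count of 2 became 5 with array weights and 6 without the libraries of over 7% Rn45s reads. The ethanol and tamoxifen groups did not overlap for 24.4% of all genes. Meg3 had 272, 255 and 243 CPM in the ethanol libraries and 159, 137 and 168 CPM in the tamoxifen libraries, without overlap (-0.73 ± 0.15; adjusted p = 0.0024). Zdbf2 had 60.4, 64.7 and 62.0 CPM against 40.6, 38.1 and 45.2 CPM, again without overlap (-0.59 ± 0.12; adjusted p = 0.0028). Meg3 in no-transgene cells with tamoxifen at 8 h was lower than in both, at 95.6, 87.8 and 84.0 CPM. Phlda2 had 42.5, 49.8 and 46.5 CPM without and 78.3, 89.4 and 80.6 CPM with tamoxifen (0.82 ± 0.26; adjusted p = 0.065). It did not pass by limma on CPM and passed with median-of-ratios scaling.

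In the same comparison 5 of 24 imprint regulators fell and 0 rose (4 and 0 with median-of-ratios scaling). They were Zfp57 (-0.96 ± 0.26), its co-repressor Trim28 (-0.50 ± 0.10), Dnmt3l (-0.91 ± 0.14), Dnmt3a (-0.46 ± 0.10) and the chromatin remodeller Atrx (-0.34 ± 0.09), whose call was lost under that scaling (-0.37). Zfp57 had 14.8 ± 3.29 CPM without and 7.23 ± 2.32 CPM with tamoxifen. Of the 24 further imprinted genes and neighbours, the amino acid transporter gene Slc38a4 rose (0.67 ± 0.12), and Adam23 (-1.01 ± 0.22) and Cobl (-0.88 ± 0.15) fell. The pluripotency markers Klf4, Klf5, Sox2 and Zfp42 fell and the trophoblast and epithelial markers Gata2, Krt8 and Krt18 rose beside them. No primitive endoderm, neuroectoderm, mesoderm or feeder marker was called. The part of these changes in the Meg3 and Zdbf2 values was not tested.

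At 16 h in Kmt2c-KO cells 0 members passed, against 0.298% of all genes (0.29% up and 0.00806% down), with 3 at an unadjusted p under 0.05 (Peg10, Peg3 and Usp29). In double-KO cells 0 members passed at 8 h, against 0.0967% of all genes (0.0644% up and 0.0322% down), with 4 at an unadjusted p under 0.05. These were Dlk1 (-0.65 ± 0.29), H19 (0.64 ± 0.22), Mest (-0.81 ± 0.33) and Mcts2 (-0.35 ± 0.15). Without tamoxifen replicate 3 of that group 11 members passed (28.2%), against 25.3% of all genes, and without tamoxifen replicate 1 or 2 0 members passed. Tamoxifen replicate 2, kept in the run that gave 11, had the lowest depth of all libraries (8.87 M reads). At 16 h in double-KO cells 0 passed, against 0.0403% of all genes (0.0322% up and 0.00806% down), and Kcnq1ot1 alone had an unadjusted p under 0.05 (0.28 ± 0.11).

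The response of Meg3 at 8 h differed between the lines. Meg3 fell with tamoxifen in Kmt2c-KO cells and went from 131, 157 and 154 CPM to 173, 234 and 119 CPM in double-KO cells, where the groups overlapped. The difference of the responses was 0.93 ± 0.21 (limma adjusted p = 0.023), 1 member against 1.43% of all genes. The call was lost without replicate 1 of the Kmt2c-KO ethanol group (0.89), replicate 2 of the Kmt2c-KO tamoxifen group (0.84) or replicate 1 of the double-KO ethanol group (0.85), with array weights (0.50) and with the libraries of the comparison alone (0.93). Without tamoxifen replicate 3 of the double-KO group 11 members passed this test, against 24.9% of all genes. At 16 h 0 members and 0 genes passed this test by limma, with 315 of all genes at an unadjusted p under 0.05, and only Usp29 had an unadjusted p under 0.05 among the members.

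GRHL2-ERT Kmt2c-KO cells also differed from no-transgene cells under tamoxifen, a comparison in which the transgene and the clone cannot be told apart. At 8 h 4 members were higher and 2 lower, against 2.67% and 1.39% of all genes. The groups did not overlap for 24.4% of all genes at 8 h and 18.7% at 16 h. H19 had 64.1, 90.5 and 81.9 CPM without and 156, 192 and 233 CPM with the transgene (1.28 ± 0.22; adjusted p = 0.00060), without overlap. Meg3 had 95.6, 87.8 and 84.0 CPM against 159, 137 and 168 CPM (0.79 ± 0.15; adjusted p = 0.00090), also apart. Grb10 was lower, with 24.5, 21.7 and 19.5 CPM against 9.02, 6.70 and 8.77 CPM (-1.33 ± 0.23; adjusted p = 0.00033), and no libraries overlapped. Plagl1 was lower as well (-0.78 ± 0.14; adjusted p = 0.00064).

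The calls of Mcts2 (0.50 ± 0.15) and Zrsr1 (0.44 ± 0.12) in that comparison were less firm. Mcts2 was not called without any 1 of the 6 libraries, at 0.45 to 0.57. Zrsr1 lost its call without no-transgene replicates 1 (0.46) or 3 (0.31) or any of the GRHL2-ERT replicates (0.41 to 0.47), and with median-of-ratios scaling (0.44), under which Phlda2 was called higher (0.77). At 16 h Meg3 (0.71 ± 0.15; adjusted p = 0.0096) and Kcnq1ot1 (0.44 ± 0.11; adjusted p = 0.047) were higher with the transgene, 2 members against 0.644% of all genes, and 0 were lower. Meg3 had 47.1, 48.0 and 43.2 CPM against 75.1, 73.2 and 79.9 CPM without overlap, and its call was lost without replicate 3 of either group (0.67 and 0.68). Kcnq1ot1 lost its call without any of 5 libraries, at 0.36 to 0.46, the exception being no-transgene replicate 3, and with median-of-ratios scaling (0.42).

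More imprinted genes were called lower than higher at 16 h against 8 h, as was so over all genes, a comparison in which the time and any batch of harvest or sequencing cannot be told apart. In Kmt2c-KO cells with ethanol 7 of 39 members were higher and 21 lower, against 17.5% and 27.5% of all genes, and 8 and 14 with median-of-ratios scaling. In double-KO cells with ethanol 3 were higher and 11 lower (8.72% and 12.5% of all genes; other scaling 3 and 7), a total that fell to 6, against 12% of all genes, without ethanol replicate 3 at 8 h. In no-transgene cells with tamoxifen 2 were higher and 16 lower (10.9% and 25.7%; other scaling 7 and 15). The member medians were -0.52, -0.26 and -0.46, against -0.12, -0.06 and -0.15 for all genes. These 3 comparisons share no libraries with each other. The times did not overlap for 56.5%, 46.2% and 52.4% of all genes in them. Median-of-ratios scaling moved the median of all genes by over 0.1 only in no-transgene cells, where the shift was -0.14.

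**Figure D5:**
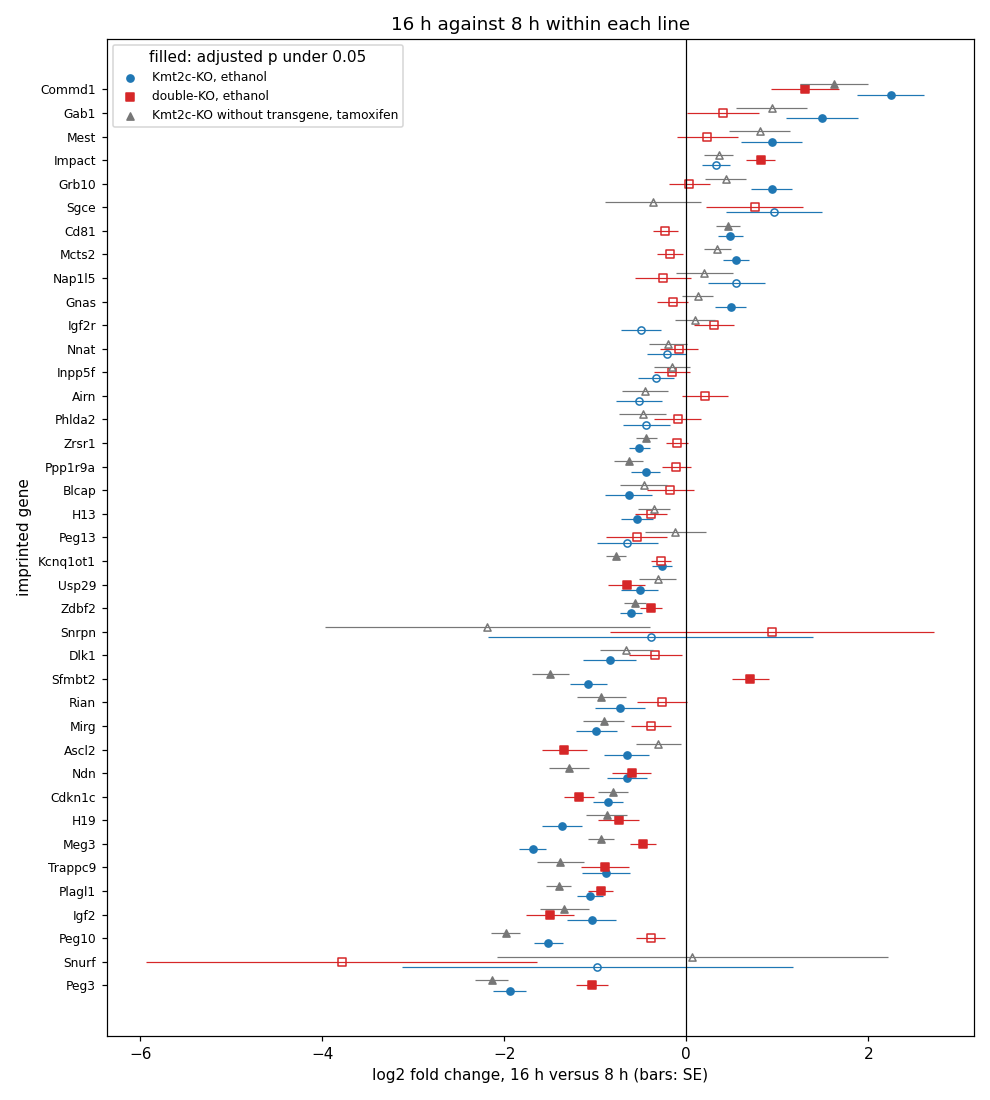
Log2 fold change at 16 h against 8 h of each measured member with SE bars, in Kmt2c-KO and double-KO cells with ethanol and in no-transgene cells with tamoxifen; filled points passed limma's adjusted p of 0.05. Peg3 lies at -1.94, -1.03 and -2.14, Commd1 lies to the right of 0 in all 3, and Sfmbt2 lies on opposite sides in the 2 GRHL2-ERT lines.

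Lower in all 3 were Peg3, Igf2, Plagl1, Cdkn1c, Trappc9, Meg3, H19, Ndn and Zdbf2, 9 members against 8.16% of all genes, of which the first 5 were lower in all 3 with median-of-ratios scaling too. Peg3 in no-transgene cells went from 26.1, 29.8 and 26.9 CPM to 6.62, 3.33 and 7.24 CPM. No libraries of the 2 times overlapped in any of the 3 lines, and the changes were -1.94 ± 0.18 in Kmt2c-KO, -1.03 ± 0.18 in double-KO and -2.14 ± 0.18 in no-transgene cells (adjusted p = 6.9e-09, 0.00026 and 1.2e-09). Igf2 changed by -1.04 ± 0.27, -1.50 ± 0.27 and -1.34 ± 0.27, Plagl1 by -1.06 ± 0.14, -0.94 ± 0.14 and -1.40 ± 0.14, and Cdkn1c by -0.86 ± 0.17, -1.18 ± 0.17 and -0.81 ± 0.17 in that order.

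The other calls shared by the 3 lines rested more on single libraries in the GRHL2-ERT lines. Trappc9 changed by -0.88 ± 0.26, -0.90 ± 0.26 and -1.38 ± 0.26, and lost its call without ethanol replicate 1 at 8 h in Kmt2c-KO cells (-0.69) and without ethanol replicate 3 at 8 h (-0.76) or 1 at 16 h (-0.73) in double-KO cells. In double-KO cells the calls of Meg3 (-0.47 ± 0.15), H19 (-0.74 ± 0.22) and Zdbf2 (-0.39 ± 0.12) were each lost without ethanol replicate 3 at 8 h (-0.44, -0.58 and -0.27) or without replicates 1 or 2 at 16 h (Meg3 -0.47 and -0.45, H19 -0.72 and -0.73, Zdbf2 -0.40 and -0.34). Meg3 was also lost without replicate 2 at 8 h (-0.43), and Ndn (-0.60 ± 0.22) without any 1 of the 6 double-KO libraries (-0.54 to -0.66). In Kmt2c-KO cells Ndn (-0.65 ± 0.22) was lost without replicate 1 at 8 h (-0.44) or replicates 1 or 3 at 16 h (-0.56 and -0.62).

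The calls of these genes in the other lines were firmer. Meg3 changed by -1.69 ± 0.15 in Kmt2c-KO and -0.94 ± 0.15 in no-transgene cells, H19 by -1.37 ± 0.22 and -0.88 ± 0.22, Zdbf2 by -0.61 ± 0.12 and -0.56 ± 0.12, and Ndn in no-transgene cells by -1.29 ± 0.22, and none of these 7 was lost without any 1 library of its comparison or with median-of-ratios scaling. Kcnq1ot1 (-0.77 ± 0.11), Mirg (-0.91 ± 0.22) and Ppp1r9a (-0.63 ± 0.16) were lower in no-transgene cells as well. Rian (-0.93 ± 0.27) was lost there without replicate 1 at 16 h (-0.43), and Zrsr1 (-0.44 ± 0.12) without replicate 2 at 8 h (-0.32) and with median-of-ratios scaling (-0.27). In double-KO cells Ascl2 was lower by -1.34 ± 0.24 (adjusted p = 0.00044), and Usp29 (-0.65 ± 0.20) lost its call without any 1 of 4 libraries (-0.68 to -0.51).

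In Kmt2c-KO cells Cd81 (0.49 ± 0.13) and Mcts2 (0.55 ± 0.15) were higher at 16 h, and Cd81 was higher in no-transgene cells too (0.46 ± 0.13). Mest (0.94 ± 0.33) lost its call without any 1 of 4 libraries (0.77 to 0.92), and Gnas (0.49 ± 0.17) without replicate 3 at 8 h (0.34) or at 16 h (0.44). Mirg (-0.99 ± 0.22) and Zrsr1 (-0.51 ± 0.12) were lower and kept their calls without any 1 library. Dlk1 (-0.84 ± 0.29) overlapped between the times and was lost without any 1 of 3 libraries (-0.80 to -0.47). H13 (-0.54 ± 0.18), Kcnq1ot1 (-0.27 ± 0.11), Ppp1r9a (-0.45 ± 0.16), Rian (-0.73 ± 0.27), Usp29 (-0.51 ± 0.20), Ascl2 (-0.66 ± 0.24) and Blcap (-0.63 ± 0.26) were also called lower. These 7 lost their calls with median-of-ratios scaling (-0.43, -0.15, -0.34, -0.61, -0.43, -0.56 and -0.53) and without at least 1 library, which for H13 was ethanol replicate 3 at 8 h (-0.43).

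Higher in all 3 was Commd1, 1 member against 4.49% of all genes, joined by Impact with median-of-ratios scaling. Commd1, which helps to regulate copper export and NF-kappa-B, had 12.1, 18.6 and 25.2 CPM at 8 h and 90.1, 88.1 and 86.9 CPM at 16 h in Kmt2c-KO cells. The times did not overlap there, and the changes were 2.24 ± 0.37, 1.31 ± 0.37 and 1.62 ± 0.37, of which the double-KO value was not called without replicate 3 at 8 h (0.94). In Kmt2c-KO cells Grb10 (0.94 ± 0.23) and Gab1 (1.49 ± 0.39) were higher at 16 h, and in double-KO cells Impact (0.82 ± 0.16; adjusted p = 0.00065). Peg10 was lower at 16 h in Kmt2c-KO (-1.51 ± 0.16) and no-transgene cells (-1.99 ± 0.16) and had -0.39 ± 0.16 in double-KO cells, which did not pass.

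Imprint regulators were lower at 16 h more often than higher, with 3 higher and 12 lower of 24 in Kmt2c-KO, 2 and 7 in double-KO and 1 and 13 in no-transgene cells, as were all genes (17.5% and 27.5%, 8.72% and 12.5%, and 10.9% and 25.7%). Sfmbt2 moved in opposite directions, by -1.08 ± 0.20 in Kmt2c-KO, 0.70 ± 0.20 in double-KO and -1.49 ± 0.20 in no-transgene cells. The double-KO value was not called without replicate 3 at 8 h (0.66) or replicate 1 at 16 h (0.67). In ethanol the line difference changed from 8 h to 16 h by 1.78 ± 0.28 for Sfmbt2 (adjusted p = 0.00019) and 1.13 ± 0.23 for Peg10 (adjusted p = 0.0026), 4 higher and 2 lower among 39 members against 3.58% and 1.26% of all genes (4.84% in either direction). With tamoxifen it changed by 1.52 ± 0.28 and 1.77 ± 0.23 (adjusted p = 0.00079 and 6.2e-06), 3 higher and 1 lower against 7.28% and 2.12% (9.4% in either direction). This test of the change between times was added after the values were seen.

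Within groups, some members varied together from library to library. A first component of the deviations from the group means held 31.9% of the within-group variance over all genes. Its lowest and highest scores were those of double-KO tamoxifen replicates 2 (-0.65) and 3 (0.52) at 8 h. The next in size was -0.27, of double-KO ethanol replicate 3 at 8 h, so correlations with the component rest largely on those tamoxifen libraries. Across the 30 libraries 9 members had a correlation over 0.7 with it, among them Gab1 (0.92), Phlda2 (0.90), Sgce (0.88), Cd81 (0.87) and Mest (0.83), and Meg3 (-0.84) and H19 (-0.78) had one under -0.7. These correlations are descriptions over libraries that share their groups, and 23.1% of all genes had one as strong. Without the 2 libraries of over 7% Rn45s reads, 31, 24, 26 and 29 members were called in the 4 line comparisons, against 30, 24, 24 and 28 with them.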

How the data were processed

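The authors deposited 1 table of log2 values, with 12428 genes as rows and the 30 libraries as columns. Per the submitters' processing notes, Salmon, DESeq2 1.34.0 and the mm10 build were used, and the step each served, the annotation and the use of strand are not given in the sources used here. The authors' values equal log2(CPM + 0.124871) with CPM (counts per 1e+06 reads) of the same sum in each library, as read from the deposited log2 columns. Column names were matched to lines by the treatments that the labels give each genotype.

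These were converted back to CPM. The log2 of CPM plus a pseudocount of 1 was fitted by limma (version 3.58.1, under R version 4.3.3) using 1 model of all 30 libraries and 10 group means (20 residual degrees of freedom), variance trend and robust moderation. Testing covered 12414 genes whose mean reached 1 CPM in any group (14 removed), and a gene was called at a two-sided Benjamini-Hochberg adjusted p under 0.05 over all of them. The method was tested on simulated data. Reads were recovered from the spacing of low values, of which 95.6% to 97.6% were whole within 0.05 reads, and floors cover counting error only.

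The members, the 8 gene lists and the tests were chosen with earlier results of these data known. Every measured member was accounted for, and fold changes were given for called members. List genes were named only when called, except for markers given by their range. Gene positions are from GENCODE M21 on mm10. The alternatives were pseudocounts of 0.1 and 5, no filter, median-of-ratios scaling, array weights, the libraries of 1 comparison alone, a replicate block and leaving out each library. Leaving out the libraries with over 7% Rn45s, summing Snrpn with Snurf, and the test of the line difference between times were added after seeing the data.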

Additional observations from a re-analysis of the deposited data

Results flagged for a closer look

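The tamoxifen response of 1 member differed between the lines by a test of the difference itself. For Meg3 at 8 h the double-KO response minus the Kmt2c-KO response was 0.93 ± 0.21 (adjusted p = 0.023) by limma, with 3 libraries in each of the 4 groups. The 3 Kmt2c-KO tamoxifen libraries were below the 3 ethanol libraries, and the double-KO groups overlapped. The call was lost without any 1 of 3 libraries (0.84 to 0.89), with array weights (0.50) and with the libraries of the comparison alone (0.93), and 11 members passed without double-KO tamoxifen replicate 3, against 24.9% of all genes.

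For 6 members the line difference in ethanol changed between 8 h and 16 h, a test added after the values were seen. It rose for Sfmbt2 by 1.78 ± 0.28 (adjusted p = 0.00019), for Meg3 by 1.21 ± 0.21 (adjusted p = 0.00048), for Peg10 by 1.13 ± 0.23 (adjusted p = 0.0026) and for Peg3 by 0.91 ± 0.25 (adjusted p = 0.034), and fell for Cd81, with -0.71 ± 0.19 (adjusted p = 0.024) and for Mcts2, with -0.73 ± 0.21 (adjusted p = 0.036). With tamoxifen it changed for 4 members, by 1.77 ± 0.23 (adjusted p = 6.2e-06) for Peg10, 1.52 ± 0.28 (adjusted p = 0.00079) for Sfmbt2, 0.96 ± 0.31 (adjusted p = 0.049) for Ndn and -1.32 ± 0.35 (adjusted p = 0.015) for Ascl2. Over all genes, 4.84% passed in ethanol and 9.4% with tamoxifen. Of these calls, that of Peg3 was lost without any 1 of 8 of the 12 libraries (0.79 to 0.94) and with median-of-ratios scaling (0.88). Cd81 lost its call without any 1 of 6 (-0.71 to -0.61), Mcts2 without any 1 of 9 (-0.75 to -0.61), and Ndn without any 1 of 9 (0.80 to 1.05) and with median-of-ratios scaling (0.83). Groups of 3 libraries were not searched for single outlying libraries.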

How the results depend on the processing

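No called value of a single member reversed its direction under any alternative run. Medians, which were not tested, changed sign with median-of-ratios scaling for the maternal members in ethanol at 16 h (0.30 to -0.03) and for all members in tamoxifen against ethanol at 8 h (0.022 to -0.0031 in Kmt2c-KO and -0.064 to 0.019 in double-KO cells), the difference of responses at 8 h (-0.039 to 0.071) and GRHL2-ERT against no transgene at 8 h (0.00029 to -0.0034). Of the 187 called values of single members, the call was kept for 185 with a pseudocount of 0.1 CPM, 180 with 5 CPM, 187 without a filter, 157 with median-of-ratios scaling, 174 with array weights, 178 with the replicate block, 176 with the libraries of 1 comparison alone, 181 without the libraries of over 7% Rn45s and 187 with Snrpn and Snurf summed. Leaving out 1 library at a time kept 1048 calls and lost 140.

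Counts of called members moved by over 1.5 times in these cases. For tamoxifen against ethanol in Kmt2c-KO cells at 8 h (2 members) array weights gave 5, the comparison's libraries alone 4 and leaving out the libraries of over 7% Rn45s 6, and in double-KO cells at 16 h (0) array weights gave 1. For the difference of responses at 8 h (1) array weights and the comparison's libraries alone gave 0. For GRHL2-ERT against no transgene at 8 h (6) array weights gave 12 and the libraries alone 14, and at 16 h (2) median-of-ratios scaling gave 1, array weights 9, the replicate block 1, the libraries alone 7 and leaving out the Rn45s libraries 4. For the line difference between times (added after seeing the data), array weights gave 13 in ethanol (6), and leaving out the Rn45s libraries gave 8 with tamoxifen (4). The cause was not tested.

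Leaving out 1 library gave 27 to 30, 23 to 24, 24 to 26 and 26 to 29 members in the 4 line comparisons. For tamoxifen against ethanol it gave 2 to 2 and 0 to 0 in Kmt2c-KO cells at 8 h and 16 h, and 0 to 11 and 0 to 0 in double-KO cells, the 11 without tamoxifen replicate 3 at 8 h. For the difference of responses it gave 0 to 11 at 8 h, the 11 without that same library, and 0 to 0 at 16 h. GRHL2-ERT against no transgene gave 4 to 5 at 8 h and 0 to 3 at 16 h, the 0 without GRHL2-ERT replicate 3. For 16 h against 8 h it gave 21 to 25 in Kmt2c-KO, 6 to 14 in double-KO (6 without ethanol replicate 3 at 8 h) and 18 to 19 in no-transgene cells, and for the line difference between times 3 to 6 and 3 to 8.

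Replicate numbers did not pair the libraries: of 60 same-numbered pairs 8 had a correlation of deviations over 0.1, and 6 of 30 libraries correlated best with their own number. The replicate block changed no count of called members by over 1.5 times other than the 1 given above. Depth limits Airn, Nap1l5, Sgce and Peg13, whose Kmt2c-KO levels lay at or near 3 reads in some libraries.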
